A study of Rattus norvegicus with 6 samples.

Results

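The chemokines and their receptors were described in bulk RNA-seq of pulmonary veins (PVs) of rats that underwent bilateral pulmonary vein banding (BPVB) or a sham operation. The genes were chosen by symbol: those beginning with Ccl, Cxcl, Cx3cl, Xcl, Ccr, Cxcr, Cx3cr, Xcr or Ackr and a digit, together with Pf4 and Ppbp, and with an expression value above 0 in the mean of the libraries. This rule took 56 of the 17833 genes listed, of which 33 encode ligands, 19 encode receptors and 4 encode atypical receptors. The members just inside the limit on expression were Ccr4, with a mean of 0.00345 FPKM (fragments scaled for gene length and library total), and Ccr3, with 0.00804 FPKM.

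Chemokines are small secreted proteins that direct the movement of leukocytes along concentration gradients, and their receptors couple to inhibitory G proteins. Ligands induced by injury draw in monocytes, neutrophils, eosinophils or lymphocytes, whereas homing ligands guide lymphocytes and dendritic cells into lymphatic vessels and lymphoid tissue. Atypical receptors bind chemokines without G protein signalling, and most of them remove chemokines from the tissue. Cxcl12 and its receptors Cxcr4 and Ackr3 also act in blood vessel formation.

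Wild type Sprague-Dawley rats were operated on at postnatal day 1, and PV tissue was taken from the right lung's upper lobe at postnatal day 21. The BPVB group had the thorax opened and the PVs constricted, and the sham group had the thorax opened without constriction. The groups held 3 rats each, so that every library came from a separate animal and each p-value is set against the spread between these libraries. That spread holds counting error as well as differences between rats, and the fit drew it toward the trend over all tested genes. The comparison asks which transcripts differ in PVs after banding. Between 23439506 and 29725808 fragments per library were recovered from the deposited FPKM, and the BPVB libraries held on average 1.16 times as many as the sham libraries. The tissue carried markers of endothelium, smooth muscle and the atrial-type cardiomyocytes of the PV sleeve, and the summed FPKM of 7 cardiomyocyte markers lay between 11292 and 11693 in the BPVB group and between 15156 and 15515 in the sham group. Alveolar type 2 cells of the lung were marked as well, and their markers differed more. These 8 markers summed to 552 to 598 FPKM in the BPVB group and 61.5 to 63 FPKM in the sham group. The part of lung tissue in the levels of the members was not tested.

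Of the 56 members, 47 passed a filter of 0.1 on mean FPKM and entered a limma fit of log2(FPKM + 0.5) over 15150 genes. A gene was called higher or lower at a Benjamini-Hochberg adjusted p under 0.05, and a differentially expressed gene (DEG) also had an absolute log2 fold change above 1. In the BPVB group 25 of the 47 tested members were higher (53.2%), 4 were lower (8.51%) and 18 were not called, while over all tested genes 17.2% were higher and 14.3% were lower. DEGs made up 14 higher members and 1 lower member, beside 2.24% and 1.03% of all tested genes. For 30 of the 47 tested members, and for 45.6% of all tested genes, every BPVB library lay on the same side of every sham library. The median log2 fold change was 0.60 over the tested members and 0.02 over all tested genes. For 6 of the 47, namely Ccl17, Ccl20, Ccl22, Cxcr1, Cxcr3 and Xcl1, the mean of the sham group alone was under the filter, so that these entered the fit through the BPVB group. Counts over the members are therefore a description.

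Calls are given next by kind of member. Among the 31 tested ligands 18 were higher and 1 was lower, and the median log2 fold change was 0.64. Among the 12 tested receptors 7 were higher and 1 was lower, and the median was 0.54. None of the 4 atypical receptors was called higher in limma, and 2 were lower. Summed over the ligands, expression was 669, 642 and 655 FPKM in the BPVB group and 425, 427 and 420 FPKM in the sham group, a ratio of 1.55. Pf4, Ccl21 and Ccl6 held 64.2% of the mean sum, and without Ccl21 the ratio was 1.32. The summed receptors went the other way, with 34.5, 40.6 and 39.4 FPKM against 47.3, 51.8 and 50.7 FPKM, and Cxcr4, Ccr1 and Cx3cr1 held 83.9% of the mean sum. That direction came from Cxcr4, since without it the receptors summed to 14.8, 17.5 and 15.3 FPKM in the BPVB group and 8.36, 8.4 and 9.25 FPKM in the sham group, a ratio of 1.83. The summed atypical receptors were also lower, at 176, 180 and 177 FPKM against 220, 222 and 228 FPKM, of which Ackr3, Ackr4 and Ackr1 made up 99.1%, and without Ackr3 the ratio was 0.843. The sums thus follow a few abundant members and were given no test. The plot of changes by member shows the spread of the log2 fold changes.

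**Figure D1:**
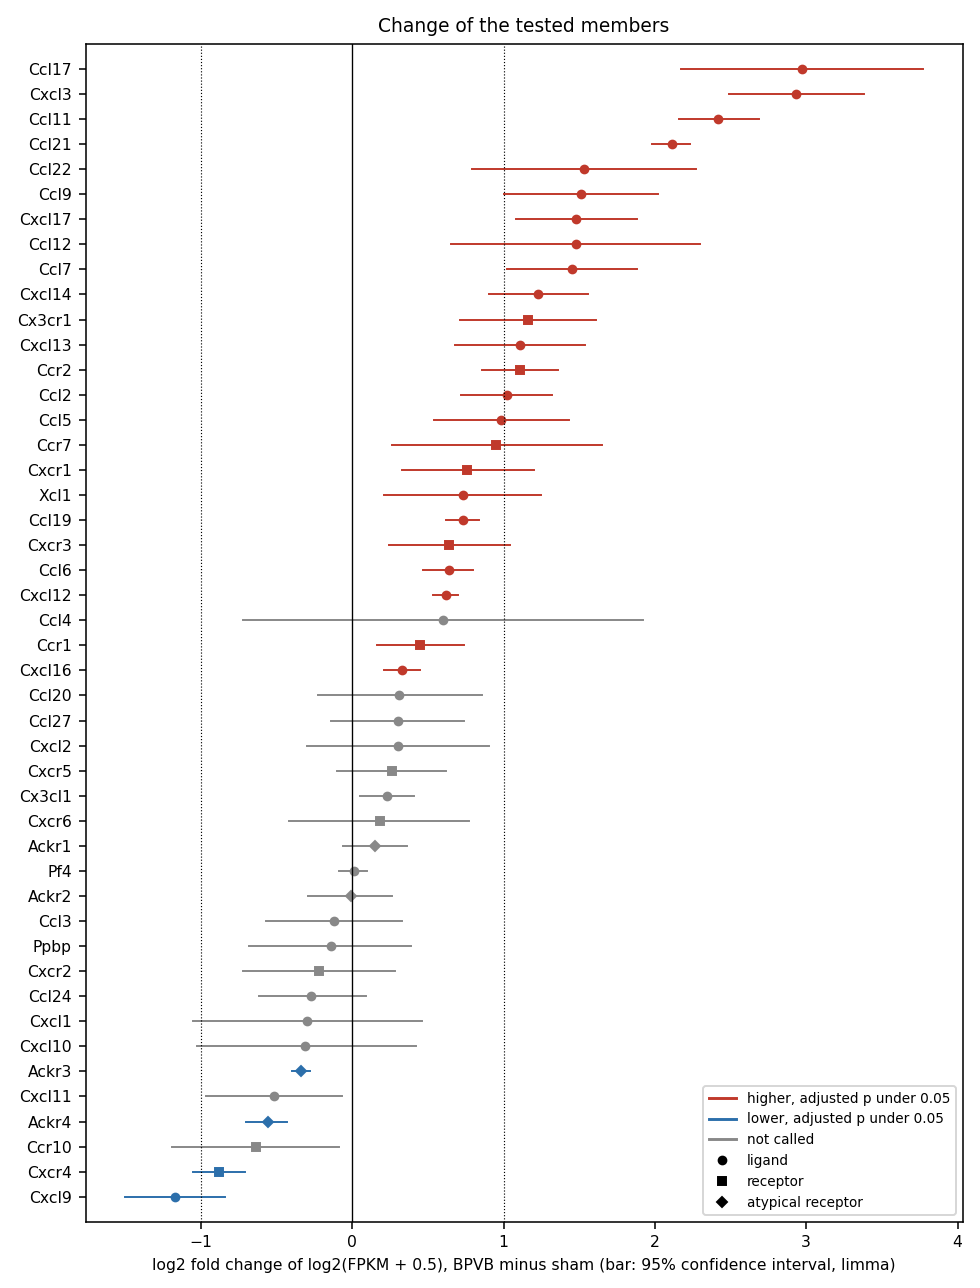
Log2 fold change of log2(FPKM + 0.5), BPVB minus sham, of 46 tested members, ordered by size, with 95% confidence intervals from limma. Colors mark the call at an adjusted p of 0.05, shapes mark ligands, receptors and atypical receptors, and dotted lines stand at -1 and 1; the 14 higher DEGs lie right of 1, and Cxcl9, at -1.17, is the 1 member left of -1.

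Sequence in front of the gene start was available in the RefSeq promoter table (build GRCr8) for 41 of the 56 members. The 250 bases before the start are shown for members of the chromosome 10 cluster that was higher throughout, for paralogs of Cxcl3 that were not called, for the most abundant higher member and for the largest fall of a ligand and of a receptor among the called members. Ccl7 and Ccl12, both higher in the BPVB group, flank Ccl11 on chromosome 10 in the RefSeq order, with promoters at chr10:67513845-67514094 (plus strand) and chr10:67567626-67567875 (plus strand). Cxcl1 and Cxcl2, neither of them called, are the neighbors of the higher gene Cxcl3 on chromosome 14, and their promoters lie at chr14:17479322-17479571 (minus strand) and chr14:17467256-17467505 (minus strand). Ccl21, the most abundant of the higher members, starts after chr5:61777516-61777765 (minus strand). Cxcl9 and Cxcr4, both lower, start after chr14:16006916-16007165 (plus strand) and chr13:42634289-42634538 (minus strand). Capitals mark matches on either strand to the TATA box TATAAA, to TTCNNNGAA as a form of the STAT element, to the AP-1 form TGANTCA, or to the NF-kB consensus.
Ccl7: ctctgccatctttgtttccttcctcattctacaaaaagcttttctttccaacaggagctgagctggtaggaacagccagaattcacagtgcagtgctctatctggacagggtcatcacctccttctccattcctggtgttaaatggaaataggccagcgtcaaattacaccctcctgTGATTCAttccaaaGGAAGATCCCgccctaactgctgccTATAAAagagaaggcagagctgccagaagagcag
Ccl12: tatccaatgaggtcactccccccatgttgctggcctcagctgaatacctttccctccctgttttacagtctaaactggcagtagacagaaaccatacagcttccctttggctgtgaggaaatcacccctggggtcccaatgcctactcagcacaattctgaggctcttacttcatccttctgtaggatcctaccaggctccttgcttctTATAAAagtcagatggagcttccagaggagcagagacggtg
Cxcl1: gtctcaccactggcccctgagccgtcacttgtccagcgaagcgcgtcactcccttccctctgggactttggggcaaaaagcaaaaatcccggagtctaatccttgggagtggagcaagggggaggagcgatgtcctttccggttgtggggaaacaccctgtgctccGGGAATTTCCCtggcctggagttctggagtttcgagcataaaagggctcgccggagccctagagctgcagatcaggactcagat
Cxcl2: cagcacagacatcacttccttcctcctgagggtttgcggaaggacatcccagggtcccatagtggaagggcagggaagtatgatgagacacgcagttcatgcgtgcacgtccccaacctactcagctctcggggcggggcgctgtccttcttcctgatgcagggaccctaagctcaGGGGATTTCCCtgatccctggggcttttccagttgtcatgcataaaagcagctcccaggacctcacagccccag
Ccl21: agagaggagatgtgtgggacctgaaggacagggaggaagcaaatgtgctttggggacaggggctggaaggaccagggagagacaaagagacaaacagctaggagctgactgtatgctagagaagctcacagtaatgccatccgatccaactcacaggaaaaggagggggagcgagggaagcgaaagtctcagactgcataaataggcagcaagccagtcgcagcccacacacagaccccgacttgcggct
Cxcl9: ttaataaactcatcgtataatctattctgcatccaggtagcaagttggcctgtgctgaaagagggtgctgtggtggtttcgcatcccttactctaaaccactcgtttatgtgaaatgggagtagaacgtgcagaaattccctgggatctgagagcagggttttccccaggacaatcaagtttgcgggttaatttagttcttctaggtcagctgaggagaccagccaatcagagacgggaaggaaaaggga
Cxcr4: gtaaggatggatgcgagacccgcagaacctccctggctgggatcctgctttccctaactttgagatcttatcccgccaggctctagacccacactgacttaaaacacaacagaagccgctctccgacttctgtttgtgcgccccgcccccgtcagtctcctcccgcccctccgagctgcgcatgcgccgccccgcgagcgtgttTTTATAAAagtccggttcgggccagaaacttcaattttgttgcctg

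In the sequence before Ccl7, the NF-kB consensus was matched from 59 to 50 bases before the start, TGANTCA from 73 to 67 bases and TATAAA from 34 to 29 bases. The promoters of Cxcl1 and Cxcl2 held overlapping matches to the NF-kB consensus, from 84 to 74 and from 74 to 64 bases before the start. TATAAA stood from 41 to 36 bases before Ccl12, and Cxcr4 held 2 overlapping matches to it on opposite strands. None of the 4 motifs was matched in the windows of Ccl21 and Cxcl9. TATAAA was found in 31.7% of the 41 member promoters and in 13.1% of all 27457 promoters, and the NF-kB consensus in 22.0% and 6.41%. The AP-1 form TGANTCA was found in 17.1% and 6.36%, and the STAT form TTCNNNGAA in 9.76% and 7.52%. The NF-kB consensus was matched in 2 of the 19 higher members with a promoter and in 5 of the 12 that were not called. Matches are a description of the letters in these windows and were not tested against expression.

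The homing ligands held the most abundant of the higher members. Ccl21, the ligand of Ccr7 that lymphatic endothelium displays to draw in dendritic cells and T cells, had 134, 137 and 144 FPKM in the BPVB group and 30.8, 30.3 and 34.5 FPKM in the sham group. The groups lay far apart, with each BPVB library above all sham libraries and little spread within either. The log2 fold change was 2.11 (SE 0.053, adjusted p = 2.8e-08). Ccl19, the other ligand of Ccr7, had 25.7, 26.7 and 26.8 FPKM in the BPVB group against 16.4, 15.8 and 15.1 FPKM, and rose by less, with a log2 fold change of 0.73 (SE 0.05, adjusted p = 9.5e-06). Ccl27, a skin-homing ligand of Ccr10, and Ccl20, the ligand of Ccr6, overlapped between the groups, with log2 fold changes of 0.30 (adjusted p = 0.28) and 0.31 (adjusted p = 0.36). Ccl27 overlaps Il11ra1 in the annotation. On chromosome 5 the genes Ccl27, Ccl19 and Ccl21 are neighbors in the RefSeq order.

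Of the 6 lymphatic endothelial markers, which include Ccl21 itself, 4 were higher, 1 was lower and 1 was not called, and their summed FPKM ranged from 189 to 202 in the BPVB group and from 81.4 to 82.7 in the sham group. Most of the BPVB sum was Ccl21, and the other 5 markers summed to 54.8 to 61.4 against 48.2 to 51.1 FPKM, a ratio of 1.16 in place of 2.4. Pdpn, a membrane glycoprotein of lymphatic endothelium that alveolar type 1 cells also carry, rose from 3.30 ± 0.281 to 15.1 ± 1.74 FPKM (SD, n = 3), a log2 fold change of 2.04 (adjusted p = 1.4e-06, limma). Mmrn1 rose by 1.16 on the log2 scale (adjusted p = 4.6e-05, limma), whereas Lyve1, which lymphatic endothelium and some macrophages share, fell by 0.47 (adjusted p = 1.6e-04, limma). Lung epithelial markers moved with these genes too. All 8 markers of alveolar type 2 cells were higher in the BPVB group, and their summed FPKM was 552 to 598 against 61.5 to 63.0. In bulk tissue more cells of a type and more RNA per cell cannot be told apart, and the part of lung or lymphatic tissue in the level of Ccl21 was not tested.

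**Figure D2:**
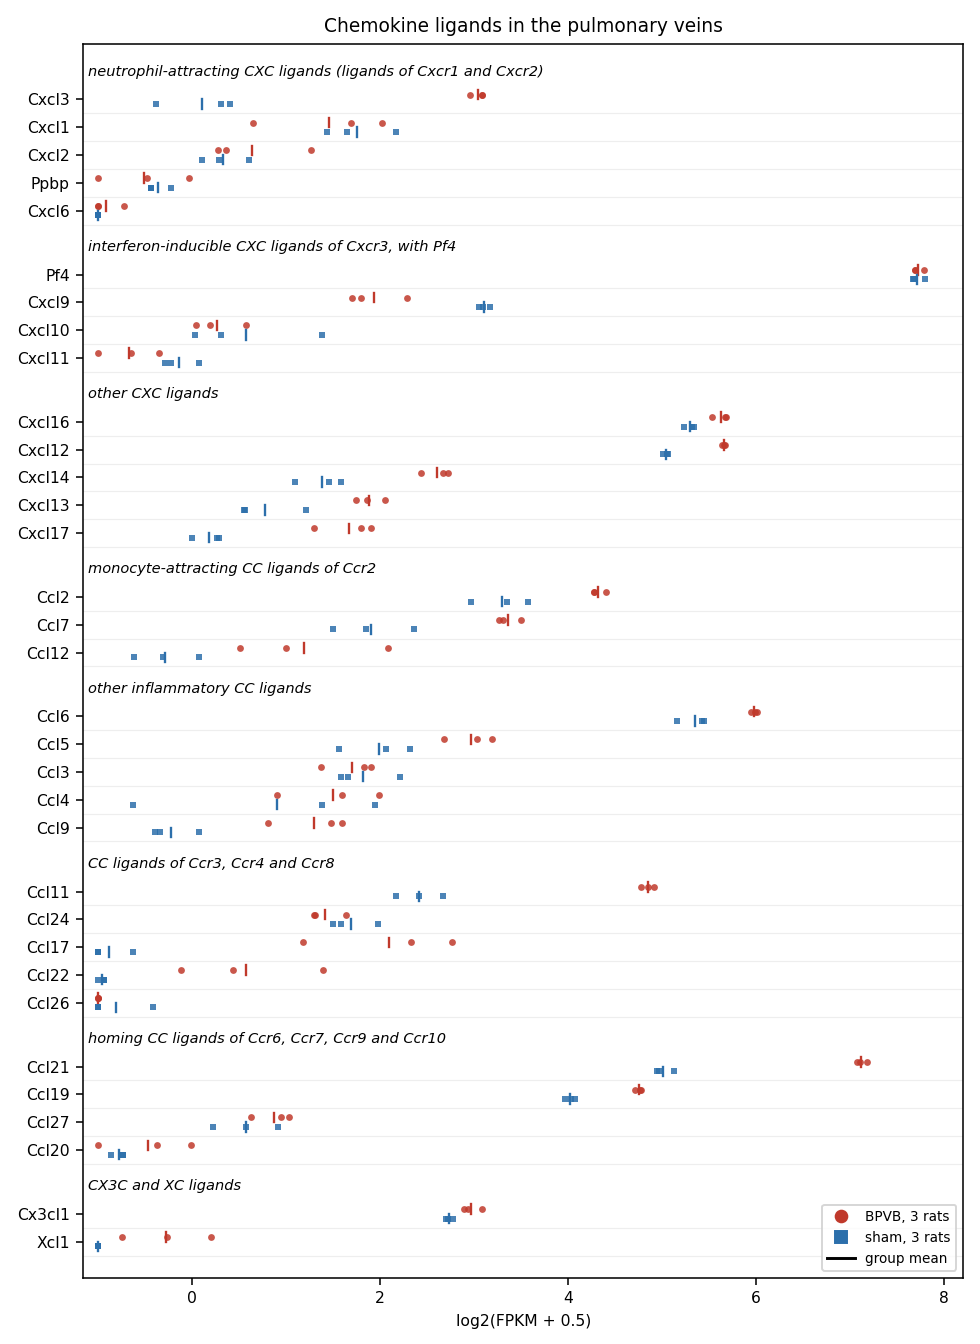
Expression of the 33 ligands as log2(FPKM + 0.5) in each library, grouped by the receptors they act on. Circles are the 3 BPVB rats, squares the 3 sham rats and vertical ticks the group means; the groups stand clear of each other for Ccl21, Ccl11, Cxcl3 and Cxcl12, and lie on each other for Pf4.

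All 3 ligands of Ccr2, the receptor that brings inflammatory monocytes out of the blood, were higher DEGs. Ccl2, the principal monocyte attractant, had 18.9, 18.9 and 20.6 FPKM in the BPVB group and 11.4, 9.74 and 7.32 FPKM in the sham group. Ccl7 had 10.8, 9.12 and 9.42 FPKM against 4.64, 2.33 and 3.12 FPKM. The BPVB values of both genes lay above every sham value, and the spread was wider among the sham rats. The log2 fold change was 1.02 for Ccl2 (SE 0.13, adjusted p = 4.5e-04) and 1.45 for Ccl7 (SE 0.19, adjusted p = 4.7e-04). Ccl2 stood so close to the DEG threshold that its log2 fold change ranged from 0.86 to 1.16 over the fits that each lacked a library. Ccl12, a rodent ligand of Ccr2, had 3.75, 0.923 and 1.5 FPKM against 0.156, 0.553 and 0.311 FPKM, so that BPVB rat 1 had a multiple of the others. Its log2 fold change was 1.48 (SE 0.36, adjusted p = 0.014), and the call was lost without sham rat 1, with an adjusted p of 0.051.

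Among the ligands of Ccr3, Ccr4 and Ccr8, receptors of eosinophils and type 2 lymphocytes, 3 of 4 tested members were higher DEGs and Ccl24 was not called. Of these DEGs, Ccl17 and Ccl22 entered the fit only through the BPVB group, while Ccl26, found in sham rat 1 alone, stayed under the filter. Ccl11, the eotaxin that fibroblasts and smooth muscle produce, had 28.3, 29.7 and 26.8 FPKM in the BPVB group and 5.89, 4.84 and 3.99 FPKM in the sham group. The lowest BPVB library thus exceeded the highest sham library several times over. The log2 fold change was 2.42 (SE 0.12, adjusted p = 1.2e-06). Ccl24, another eotaxin, had a log2 fold change of -0.27 (adjusted p = 0.24) with overlapping groups. The 4 eosinophil markers summed to 0.943 to 1.6 FPKM in the BPVB group and 0.618 to 1.19 FPKM in the sham group, with overlap. Siglec5, with 26 to 76 fragments per library, and Prg2, with 0 to 18, entered the fit and were not called (adjusted p = 0.48 and 0.91). The eosinophil peroxidase gene Epx was found with 1 fragment in the 6 libraries together, and the interleukin-5 receptor gene Il5ra with 4 fragments.

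The Ccr4 ligands Ccl17 and Ccl22, which dendritic cells and macrophages make to attract regulatory and type 2 T cells, were nearly limited to the BPVB libraries. Ccl17 had 34, 13 and 53 fragments in the BPVB group and 0, 0 and 1 fragments in the sham group, corresponding to 4.52, 1.77 and 6.32 FPKM and to 0, 0 and 0.149 FPKM. The ratio of the groups, scaled for library totals, was 86.1 with a 95% counting interval of 15.1 to 3435. Ccl22 had 99, 39 and 22 fragments against 0, 1 and 1, a ratio of 68.9 (18.8 to 574). No BPVB library of either gene came near a sham library, while the BPVB libraries differed severalfold among themselves and in a different order for the 2 genes. The fitted log2 fold changes, held down by the pseudocount, were 2.97 for Ccl17 (SE 0.35, adjusted p = 2.6e-04) and 1.53 for Ccl22 (SE 0.32, adjusted p = 0.0069). Ccr4, their receptor, was found with 1 fragment in the 6 libraries, and Ccr8 with 5 fragments, all in BPVB libraries. Counting intervals here cover counting error only.

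The other inflammatory CC ligands were mixed, with 3 of 5 higher and 2 not called. Ccl6, a rodent ligand of Ccr1 made by macrophages and other myeloid cells, was the most abundant of them, with 63.1, 61.3 and 63.7 FPKM in the BPVB group and 42.5, 35.2 and 43.2 FPKM in the sham group, a log2 fold change of 0.64 (SE 0.072, adjusted p = 2.0e-04). Ccl9, a related rodent ligand of Ccr1, had 2.53, 2.29 and 1.25 FPKM against 0.555, 0.265 and 0.293 FPKM and was a DEG, with a log2 fold change of 1.51 (SE 0.23, adjusted p = 0.001). In alternative fits the log2 fold change of Ccl9 ranged from 1.12 to 2.38. Ccl5, which T cells, natural killer cells and platelets carry, had 8.63, 5.93 and 7.69 FPKM against 3.70, 2.47 and 4.50 FPKM. The groups were separate for these 3 genes, and the log2 fold change of Ccl5 was 0.98 (SE 0.20, adjusted p = 0.005). Ccl3 and Ccl4, the inflammatory ligands of macrophages, overlapped between groups, with log2 fold changes of -0.12 (95% confidence interval -0.57 to 0.33, adjusted p = 0.69) and 0.60 (-0.72 to 1.92, adjusted p = 0.48). The interval of Ccl4 was the widest among the tested members, since sham rat 3 had 0.150 FPKM and the other sham rats 2.11 and 3.36 FPKM.

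The neutrophil-attracting CXC ligands of Cxcr1 and Cxcr2 did not move as a group, with 1 of 4 tested members higher. Cxcl3 had 7.98, 7.30 and 8.01 FPKM in the BPVB group and 0.739, 0.270 and 0.826 FPKM in the sham group, from 271 to 339 fragments per BPVB library and from 9 to 28 per sham library. The BPVB libraries were close to each other and far above each sham library. The log2 fold change was 2.93 (SE 0.19, adjusted p = 7.7e-06). Cxcl1, a paralog of the same receptor specificity, had 3.57, 1.07 and 2.74 FPKM against 2.21, 2.65 and 4.0 FPKM, and Cxcl2 had 0.713, 1.91 and 0.792 FPKM against 1.03, 0.580 and 0.722 FPKM. Both overlapped, with log2 fold changes of -0.30 (95% confidence interval -1.05 to 0.46) and 0.30 (-0.30 to 0.90). Ppbp, the platelet basic protein, had a log2 fold change of -0.14 (adjusted p = 0.69), and Cxcl6 was found with 5 fragments, all in BPVB rat 3. The chemokine genes are short and related in sequence, and how fragments that match several of them were counted is not given in the sources used here.

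Of 9 tested neutrophil markers 5 were lower in the BPVB group, none was higher in limma and 4 were not called, with a summed FPKM of 8.92 to 12.2 against 23.2 to 27.2. The 4 not called had positive log2 fold changes, from 0.23 to 0.68 (adjusted p = 0.13 to 0.35, limma). S100a8, a calcium-binding protein abundant in neutrophils, fell from 12.0 ± 1.6 to 4.32 ± 2.06 FPKM (SD, n = 3), and its partner S100a9 fell by 1.2 on the log2 scale (adjusted p = 6.4e-05, limma). Cxcl3 thus rose in veins where the summed neutrophil markers, mostly S100a8 and S100a9, were lower. Neutrophils as a source or a target of Cxcl3 were not tested.

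Pf4, platelet factor 4, was the most abundant member and did not pass the test. It had 219, 206 and 206 FPKM in the BPVB group and 204, 221 and 203 FPKM in the sham group, and the groups lay on each other. The log2 fold change was 0.01 with a 95% confidence interval of -0.09 to 0.10 (adjusted p = 0.92). Of 7 platelet and megakaryocyte markers 6 were not called, and Itga2b, the platelet fibrinogen receptor subunit, fell by 0.55 on the log2 scale (adjusted p = 9.7e-04, limma). The most abundant of these markers had mean values of a few FPKM, with Itga2b at 4.90 ± 0.266 and 7.39 ± 0.408 FPKM (SD, n = 3) in the BPVB and sham groups. The gene model of Pf4 was only 318 bases long, a length divisible by 3, as for Ccl4, Ccl6, Ccl17 and Xcl1, and an FPKM scaled by a coding length is not comparable with that of a full transcript.

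The interferon-inducible ligands of Cxcr3, an activated T cell and natural killer cell receptor, contained the only ligand that fell. Cxcl9 had 4.40, 2.77 and 2.98 FPKM in the BPVB group and 8.05, 7.78 and 8.49 FPKM in the sham group, with no overlap. The log2 fold change was -1.17 (SE 0.15, adjusted p = 3.5e-04), and Cxcl9 was the 1 lower DEG among the members. Its neighbors on chromosome 14 were not called, with log2 fold changes of -0.31 for Cxcl10 (adjusted p = 0.51) and -0.52 for Cxcl11 (adjusted p = 0.077). Cxcl11 had 0.142, 0 and 0.287 FPKM against 0.359, 0.324 and 0.558 FPKM, so that its groups did not overlap either, at low expression. Both Cxcl10 and Cxcl11 overlap the gene Art3 in the RefSeq annotation, and the strand setting of the counting is not given in the sources used here.

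The other 5 CXC ligands were all higher in the BPVB group. Cxcl12, the ligand of Cxcr4 and Ackr3 that stromal and vessel wall cells produce, had 50.5, 49.4 and 50.1 FPKM in the BPVB group and 32.9, 32.7 and 31.7 FPKM in the sham group. With less than 1 FPKM of SD in each group, its log2 fold change of 0.62 (SE 0.037, adjusted p = 4.1e-06) was small but far outside the spread. Cxcl16, a membrane-bound ligand of Cxcr6, had 50.8, 50.4 and 45.6 FPKM against 40.0, 37.1 and 39.3 FPKM, a log2 fold change of 0.33 (SE 0.053, adjusted p = 0.0015), and it overlaps Zmynd15 in the annotation. Cxcl14, which epithelium and fibroblasts express, had 6.09, 5.86 and 4.91 FPKM against 2.50, 1.64 and 2.26 FPKM, a log2 fold change of 1.23 (SE 0.14, adjusted p = 2.5e-04). Each BPVB library of these 3 genes exceeded all sham libraries. Cxcl13, the B cell attractant acting on Cxcr5, had 2.86, 3.13 and 3.67 FPKM against 1.83, 0.984 and 0.968 FPKM, with a log2 fold change of 1.11 (SE 0.19, adjusted p = 0.0022). Cxcl17, a ligand of mucosal epithelium, had 1.97, 2.97 and 3.24 FPKM against 0.501, 0.720 and 0.708 FPKM, with a log2 fold change of 1.48 (SE 0.18, adjusted p = 2.8e-04). Both were again separate between the groups. None of the 5 tested B cell markers was called by limma, their median log2 fold change being 0.07. Epithelial markers were higher, with all 8 of alveolar type 2 cells called. Scgb1a1, the 1 tested marker of airway epithelium, had a log2 fold change of 2.52 (adjusted p = 1.6e-06, limma). The part of epithelium in the levels of Cxcl14 and Cxcl17 was not tested.

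Cx3cl1, or fractalkine, which endothelium displays to Cx3cr1 on monocytes, had 7.96, 6.93 and 7.17 FPKM against 6.02, 6.38 and 6.11 FPKM. Its groups did not overlap, but the log2 fold change of 0.23 (SE 0.079) had an adjusted p of 0.051. Xcl1, or lymphotactin, made by activated T cells and natural killer cells, had 6, 3 and 1 fragments in the BPVB group and 0 in each sham library, which over the groups was at least 2.87-fold higher against a floor of 3 fragments. The call of Xcl1 (adjusted p = 0.038) rests on these few fragments and was lost without BPVB rat 2 (0.087) and without each of the sham rats (0.088 to 0.09). Without BPVB rat 1, Xcl1 fell under the filter and was not tested.

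**Figure D3:**
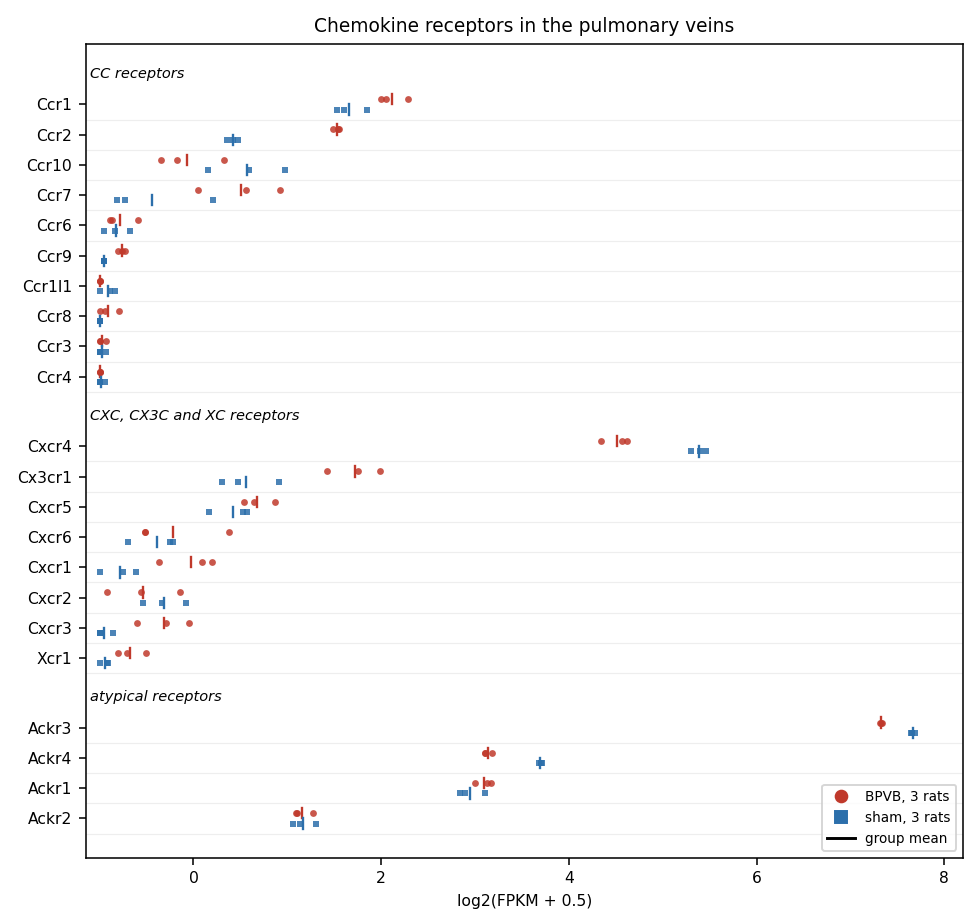
Expression of 18 receptors and the 4 atypical receptors as log2(FPKM + 0.5) in each library. Circles are the 3 BPVB rats, squares the 3 sham rats and vertical ticks the group means; Cxcr4, Ackr3 and Ackr4 stand lower in the BPVB group, and Ccr2 and Cx3cr1 stand higher.

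The receptors of Cxcl12 moved against their ligand. Cxcr4, the signalling receptor, had 19.8, 23.1 and 24.1 FPKM in the BPVB group and 39.0, 43.4 and 41.5 FPKM in the sham group. It was the most abundant of the 19 receptors, the groups were wide apart, and the log2 fold change was -0.88 (SE 0.075, adjusted p = 3.8e-05). Ackr3, the atypical receptor that takes up Cxcl12, had 158, 161 and 160 FPKM against 199, 201 and 206 FPKM, a log2 fold change of -0.34 (SE 0.027, adjusted p = 2.2e-05). Ackr4, which removes Ccl19 and Ccl21, was lower as well, with 8.12, 8.59 and 8.11 FPKM against 12.6, 12.5 and 12.3 FPKM and a log2 fold change of -0.56 (SE 0.06, adjusted p = 1.3e-04). It overlaps Acad11 in the annotation. For both atypical receptors all BPVB libraries lay below all sham libraries, while their ligands Cxcl12, Ccl19 and Ccl21 were higher. Ackr1, the Duffy antigen of venular endothelium and erythroid cells, and Ackr2, a scavenger of inflammatory CC ligands on lymphatic endothelium, overlapped between the groups, with log2 fold changes of 0.15 (95% confidence interval -0.06 to 0.36) and -0.01 (-0.29 to 0.26). Of 8 endothelial markers 5 were lower, none was higher in limma and 3 were not called, and their summed FPKM was 1080 to 1096 against 1223 to 1233. The share of endothelium in the lower Cxcr4 and Ackr3 was not tested.

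The monocyte and macrophage receptors Ccr2, Cx3cr1 and Ccr1 were higher. Ccr2 had 2.40, 2.31 and 2.42 FPKM in the BPVB group and 0.781, 0.835 and 0.889 FPKM in the sham group, and its log2 fold change of 1.11 (SE 0.11, adjusted p = 9.6e-05) made it a DEG, as were its 3 ligands. Cx3cr1, the fractalkine receptor of patrolling monocytes and resident macrophages, had 2.18, 3.47 and 2.87 FPKM against 0.730, 1.38 and 0.886 FPKM, a log2 fold change of 1.16 (SE 0.20, adjusted p = 0.0021). Ccr2 and Cx3cr1 did not overlap between the groups. Ccr1, expressed by monocytes and neutrophils, had 3.49, 4.38 and 3.64 FPKM against 2.53, 3.11 and 2.38 FPKM and was called with a log2 fold change of 0.45 (SE 0.13, adjusted p = 0.025), also without overlap. The call of Ccr1 was lost without BPVB rat 2 (adjusted p = 0.087), sham rat 1 (0.075) or sham rat 3 (0.081).

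Receptors of lymphocytes and dendritic cells were scarce. Ccr7, the receptor of Ccl19 and Ccl21, had 45, 17 and 35 fragments in the BPVB group and 3, 2 and 19 in the sham group, so that sham rat 3 exceeded BPVB rat 2. Its log2 fold change was 0.95 (SE 0.31, adjusted p = 0.043), and the call was lost without BPVB rat 1 (0.13), BPVB rat 3 (0.10), sham rat 1 (0.13) or sham rat 2 (0.13). Cxcr3, the receptor of Cxcl9, had 14, 7 and 23 fragments against 0, 2 and 0, a ratio of 18.9 with a 95% counting interval of 4.94 to 161. Cxcr3 entered the fit only through the BPVB group. Its call, at a log2 fold change of 0.64 (SE 0.17, adjusted p = 0.022), was lost without BPVB rat 1 (0.059), BPVB rat 3 (0.071), sham rat 1 (0.065) or sham rat 3 (0.066). Cxcr1, a neutrophil receptor that also entered the fit only through the BPVB group, had 10, 20 and 26 fragments against 5, 3 and 0. It had a log2 fold change of 0.76 (SE 0.19, adjusted p = 0.015), and the call was lost without BPVB rat 2 (0.053), BPVB rat 3 (0.056) or sham rat 3 (0.057). In alternative fits, with other pseudocounts and limma-voom among them, the log2 fold change ranged from 0.63 to 2.25 for Ccr7, 0.36 to 3.81 for Cxcr3 and 0.46 to 2.87 for Cxcr1. Cxcr2, the neighbor of Cxcr1, was not called, with a log2 fold change of -0.22 (adjusted p = 0.48) and overlapping groups.

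Ccr10, the receptor of Ccl27, had a log2 fold change of -0.64 that did not pass the test (adjusted p = 0.077) and overlaps Cntnap1 in the annotation. Cxcr5, the receptor of Cxcl13, and Cxcr6, the receptor of Cxcl16, had log2 fold changes of 0.26 (adjusted p = 0.25) and 0.18 (adjusted p = 0.65), each with overlapping groups. In the annotation Cxcr5 overlaps Bcl9l and Cxcr6 overlaps Fyco1. The members under the filter were mostly receptors. Xcr1, the receptor of Xcl1 on cross-presenting dendritic cells, has a gene model of 12503 bases, which puts it under the filter on FPKM although it had 24, 67 and 41 fragments in the BPVB group and 0, 8 and 10 in the sham group. Ccr9, a gut-homing receptor, had 5, 7 and 7 against 1, 1 and 1, a ratio of 5.45 (1.61 to 28.8). Ccr6, the receptor of Ccl20, had 5, 21 and 7 against 7, 2 and 15 and overlapped. Ccr1l1 was found with 2, 3 and 0 fragments in the sham group alone, Ccl26 with 4 fragments in sham rat 1 alone, and Ccr3, the eotaxin receptor, with 1 fragment in a library of each group. The plot of fragments shows how few of them carry the receptor calls.

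**Figure D4:**
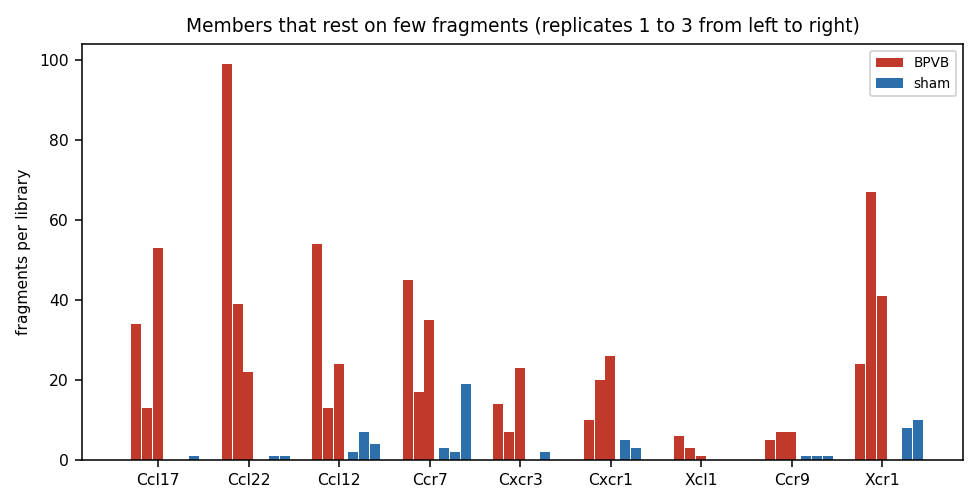
Recovered fragments per library (linear axis from 0) for 9 members that rest on few fragments. Red bars are BPVB rats 1 to 3 and blue bars sham rats 1 to 3, from left to right, and a missing bar is 0 fragments; the tallest bar is Ccl22 in BPVB rat 1, with 99 fragments, and the sham libraries reach 19 fragments, in Ccr7.

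Members that are neighbors in the genome, with at most 2 other coding genes between them in the RefSeq order, did not all share a call. The cluster of Ccl2, Ccl7, Ccl11 and Ccl12 on chromosome 10 was higher throughout, with log2 fold changes from 1.02 to 2.42. A second group on chromosome 10, Ccl5, Ccl9, Ccl6, Ccl3 and Ccl4, held 3 higher members and 2 that were not called. On chromosome 14, Cxcl3 was the only one called by limma of Cxcl2, Cxcl1, Cxcl3, Pf4, Ppbp and Cxcl6. On chromosome 19, Ccl17 and Ccl22 were higher and Cx3cl1, between them, was not called.

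Leukocyte markers moved with these members. All 4 pan-leukocyte markers were higher, with a summed FPKM of 51.2 to 53.9 in the BPVB group and 25.9 to 28.4 in the sham group, and Ptprc, the leukocyte common antigen CD45, rose by 1.06 on the log2 scale (adjusted p = 8.4e-05, limma). Of 12 macrophage markers 10 were higher, 1 was lower and 1 was not called, with a summed FPKM of 747 to 766 against 294 to 299. Most of the BPVB sum was Lyz2, and the other 11 markers summed to 163 to 172 against 130 to 139 FPKM, a ratio of 1.24 in place of 2.55. Lyz2, a lysozyme of macrophages that alveolar type 2 cells also make in rodents, rose from 163 ± 3.85 to 592 ± 15.5 FPKM (SD, n = 3), and the complement gene C1qa by 0.42 on the log2 scale (adjusted p = 0.0025, limma). The 6 tested monocyte markers, Ccr2 among them, included 4 higher, 1 lower and 1 not called, with a median log2 fold change of 0.60. Of 7 mast cell markers 5 were higher, with a summed FPKM of 38.6 to 44.9 against 19.6 to 23.8, and the protease gene Mcpt1l1 rose by 1.19 on the log2 scale (adjusted p = 1.9e-04, limma). Among 9 tested T cell markers Cd4 alone was called, rising by 0.72 on the log2 scale (adjusted p = 4.5e-04, limma), a gene that rat macrophages also express, and the T cell list had a median log2 fold change of 0.12. Of 5 tested natural killer cell markers 2 were higher, and of 6 tested dendritic cell markers 1 was higher and 1 was lower. The median log2 fold change of these lists lay between -1.2 for neutrophils and 1.07 for mast cells. The part of leukocyte number in the levels of the chemokines and receptors was not tested.

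**Figure D5:**
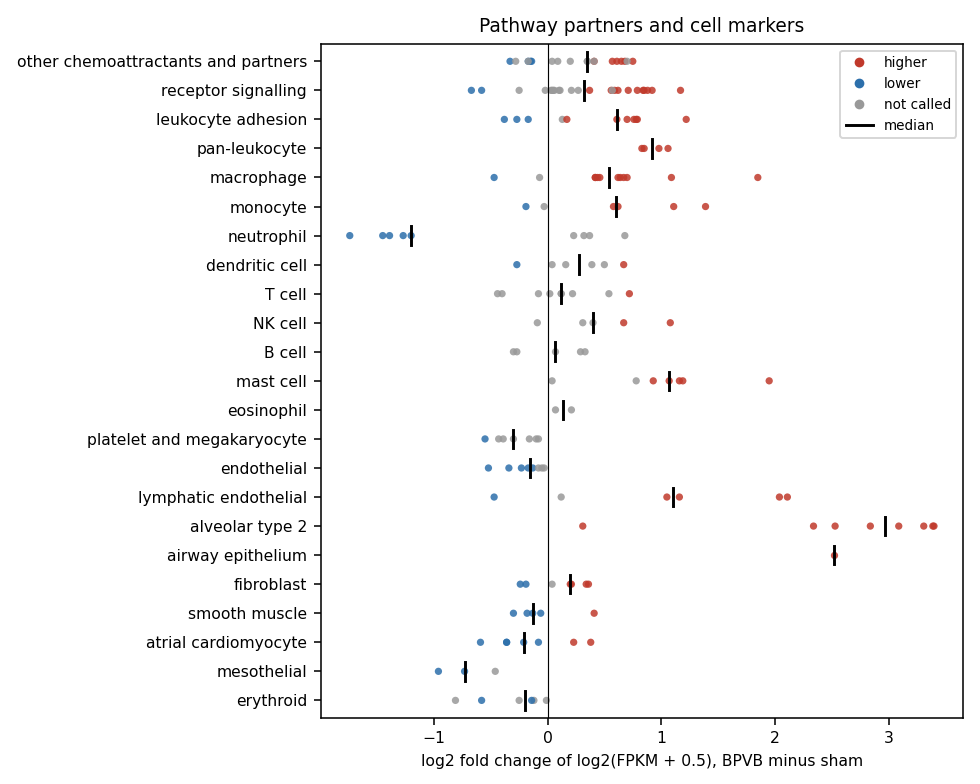
Log2 fold change of log2(FPKM + 0.5), BPVB minus sham, of the tested genes of 23 lists of pathway partners and cell markers. Each point is a gene, colored by its call at an adjusted p of 0.05, and black ticks are list medians; the alveolar type 2 list has the highest median, 2.96, and the neutrophil list the lowest, -1.2.

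Genes of the wider chemokine pathway moved in both directions. Of 19 tested chemoattractants and partners outside the family 6 were higher, 4 were lower and 9 were not called. Cd74, the invariant chain and receptor of the cytokine Mif, rose from 128 ± 5.54 to 171 ± 4.62 FPKM (SD, n = 3), while Mif itself fell by 0.33 on the log2 scale (adjusted p = 7.9e-04, limma). Rarres2, or chemerin, and S1pr1, the receptor through which lymphocytes leave tissue, fell by 0.14 and 0.17 on the log2 scale (adjusted p = 0.031 and 0.0044, limma). Of 24 tested genes of receptor signalling 11 were higher, 2 were lower and 11 were not called. Gnai2 and Gnb1, the subunits of the G protein that chemokine receptors use, had log2 fold changes of 0.04 and -0.02 and were not called, and the arrestin Arrb1 rose by 0.37 on the log2 scale (adjusted p = 7.9e-04, limma). Of 11 leukocyte adhesion genes 7 were higher, 3 were lower and 1 was not called. Vcam1, the endothelial and stromal ligand of leukocyte integrins, rose by 0.61 on the log2 scale (adjusted p = 4.7e-05, limma), whereas Pecam1, Cd34 and Icam2 fell by 0.17, 0.38 and 0.27 on the log2 scale.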

How the data were processed

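The authors deposited 1 FPKM value per gene for each of 6 libraries, from PVs of 3 BPVB and 3 sham rats. The study's methods name fastp, HISAT, HTSeq-count and a VAHTS kit, whereas the labels name a NEBNext kit, HISAT2 2.0.5, StringTie 1.3.3b, featureCounts 1.5.0-p3 and DESeq2 1.20.0. The genome build, annotation and strand setting are not given in the sources used here. Groups and replicate numbers came from the labels.

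Whole fragments were recovered for 17833 genes (100%) from the ratios of each gene's FPKM between libraries, within a relative tolerance of 1e-06. The depth of 23439506 to 29725808 fragments bounds the precision of low genes, and intervals are at 95%. In simulated data 98.6% of genes had all fragments right. The main test was limma 3.58.1 in R 4.3.3 (lmFit, eBayes with trend, two-sided) on log2(FPKM + 0.5) for genes whose mean FPKM reached 0.1, adjusted by Benjamini-Hochberg over 15150 genes. The deposited unit is FPKM, so DESeq2 was not the main test. The recovered fragments were used with limma-voom as an alternative, and DESeq2 was not run on them. Tested on simulated data for BPVB against sham, 99.5% of 200 genes changed 2-fold were called among 15164 genes, and 11 unchanged genes were called too. The changed genes were drawn only from those above a floor on fragments, and all genes were given the same dispersion. This check therefore does not cover the members with few fragments. DEGs also needed an absolute log2 fold change above 1.

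Of the members, 1 is counted but not reported here. The members, role groups and 23 gene lists were chosen with earlier results of these data known. Full values were given for DEGs, the 10 members of highest mean FPKM and receptors with an adjusted p under 0.05, and at most 4 genes of highest mean were named per list. The values of other members, and the eosinophil genes Epx and Il5ra, were added after they were seen. Alternatives were pseudocounts of 0.1 and 1, other filters, median of ratios, a replicate block, limma-voom on recovered fragments and leaving out each library. Summed FPKM were given no test. Promoters came from RefSeq (GRCr8), matched by gene number for 56 of 56 members. Other steps used pandas 2.3.3, scipy 1.17.1 and numpy 2.4.6 in Python 3.11.15, and figures matplotlib 3.10.9.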

Additional observations from a re-analysis of the deposited data

How the results depend on the processing

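The 29 calls kept their direction in every alternative that tested them. With a pseudocount of 1 the number of higher DEGs was 9 instead of 14, since Ccl2, Ccl22, Ccr2, Cx3cr1 and Cxcl13 no longer exceeded the fold threshold, and with a pseudocount of 0.1 it was 20. Under limma-voom on recovered fragments it was 19, and the calls of Ccr1 (adjusted p = 0.057) and Xcl1 (0.21) were lost. Without a filter the call of Ccr7 was lost (0.074). Cx3cl1 passed with a pseudocount of 0.1 (0.049) and with a filter of 0.5 (0.044). Scaling by median of ratios moved the difference of the summed ligands from 231 to 220 FPKM and of the atypical receptors from -45.8 to -49.3 FPKM, and that of Pf4 to -0.02 on the log2 scale. Leaving out each library gave 20 to 23 higher members, 4 to 6 lower members, 13 to 16 higher DEGs and 1 lower DEG, and differences of 224 to 238 FPKM for the ligands, -13.1 to -9.92 FPKM for the receptors and -47.5 to -43.5 FPKM for the atypical receptors. Over these fits the log2 fold change of 9 members that were not called spanned 0, from -0.07 to 0.06 for Ackr2, -0.24 to 0.08 for Ccl3, -0.17 to 1.12 for Ccl4, -0.58 to 0.11 for Cxcl1, -0.58 to 0.10 for Cxcl10, -0.01 to 0.48 for Cxcl2, -0.12 to 0.33 for Cxcr6, -0.02 to 0.05 for Pf4 and -0.38 to 0.11 for Ppbp. The calls of Ccl12, Ccr1, Ccr7, Cxcr1, Cxcr3 and Xcl1 were each lost without at least 1 library, while Ccl20 was called without BPVB rat 2 (0.049), Cxcl11 without BPVB rat 3 (0.038) and Ccr10 without BPVB rat 3 (0.039) or sham rat 2 (0.032). With the replicate number as a block, 25 members were higher and 6 lower, with Ccr10 (adjusted p = 0.015) and Cxcl11 (0.046) added, and no other call changed. The numbers gave no pairing, since the deviations of samples of the same number correlated by 0.0136 to 0.0255, although every sample correlated best with its own number. The cause of these changes was not tested. Sums without a leading gene were chosen after seeing the data, and gave differences of 125 FPKM for the ligands without Ccl21, 7.22 FPKM for the receptors without Cxcr4, a turn of direction, and -3.37 FPKM for the atypical receptors without Ackr3. With 3 rats per group, and from 0 to 20 fragments per library for several receptors, depth limits what can be said of Ccr4, Ccr8, Xcl1, Ccr3 and Ccl26.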
